A study of Mus musculus with 11 samples.

Results

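The genes described here are 10 imprinted genes with roles in growth, namely H19, Igf2, Dlk1, Meg3, Peg3, Plagl1, Cdkn1c, Grb10, Mest and Ndn. They were picked by gene name from a bulk RNA-Seq table of mouse dorsal root ganglia (DRGs) that lists 36670 genes, and every one of the 10 was found in it. The list was drawn up with earlier results of the same libraries known, so the values across treatment and genotype are given as a description, and the fitted p-values of those comparisons state where each gene stood among all genes rather than independent evidence. The rule names the treatment and genotype groups and not sex. The comparison of females with males uses the same libraries, which were known when the list was made, and its tests are to be read with that limit.

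DRGs hold the cell bodies of sensory neurons, wrapped by satellite glial cells. The study asked what Gpr37l1, a receptor of satellite glia, contributes to neuropathic pain. Its libraries came from WT mice and mice lacking Gpr37l1, with and without paclitaxel (PTX), a chemotherapy drug that causes painful neuropathy. For WT there were 3 control libraries and 3 taken 4 weeks after PTX, and for Gpr37l1 KO there were 3 control libraries and 2 taken 4 weeks after PTX, each from a separate mouse. By the methods of the study the KO mice carry a targeted allele of the gene and were kept on a C57BL/6 background, and the labels give no age. Each group held 1 mouse labelled female, replicate 3 in the sample descriptions, and otherwise mice labelled male. The sample titles instead number the KO PTX male 1 and the KO PTX female 2, and the numbers of the descriptions are used here. By those, labelled sex cannot be told apart from replicate number 3.

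An imprinted gene is transcribed mainly from the copy inherited from 1 parent, because methylation marks set in the germ line differ between the parental copies. Many imprinted genes act on growth before and after birth, those active on the father's copy often promoting it and those active on the mother's copy often restraining it, and most fall in expression after birth. H19, a long noncoding RNA of the maternal copy, and Igf2, a fetal growth factor of the paternal copy, share 1 imprinting control region. Dlk1, a membrane protein of the Notch ligand type, and Meg3, a long noncoding RNA, form a similar pair. Transcript levels alone do not show which parental copy was read.

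In the mm10 build, the table places H19 on the minus strand of chromosome 7 between bases 142575529 and 142578143, and Igf2 on the same strand between 142650766 and 142666816, which leaves 72.6 kb between them. Cdkn1c lies on that chromosome too, between 143458339 and 143461050. Dlk1, on chromosome 12 between 109452823 and 109463336, is followed after 77.7 kb by Meg3, between 109541001 and 109571721. Igf2 shares part of its locus with Gm49394, a protein-coding gene annotated on the same strand, so reads could be split between them and the Igf2 values are uncertain to that extent.

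Several of these transcripts also hold miRNAs. The ones shown are those of H19, Igf2 and Mest, because their host transcripts carry the results below. RefSeq places the H19 pair inside an H19 exon at chr7:142577112-142577133 and chr7:142577078-142577099, and those of Igf2 and Mest in introns (GRCm38.p6). Capitals mark the seed, bases 2 to 8, and none of these 6 miRNAs shares a seed with another.
miR-675-5p: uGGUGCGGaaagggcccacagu
miR-675-3p: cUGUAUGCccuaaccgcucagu
miR-483-5p: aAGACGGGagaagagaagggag
miR-483-3p: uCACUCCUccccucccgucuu
miR-335-5p: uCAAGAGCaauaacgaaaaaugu
miR-335-3p: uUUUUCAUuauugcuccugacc
Because poly(A) RNA was sequenced, the values below are those of the host transcripts and not of the mature miRNAs.

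The libraries held between 52735648 and 80348732 estimated counts, with a median of 75538569. The deleted gene checked the genotype labels, since Gpr37l1 lay between 14.6 and 35.7 FPKM in WT and between 0.21 and 1.15 FPKM in KO libraries. FPKM is a fragment count scaled to transcript length and library depth. Sensory neuron markers were abundant in every library, with a summed level of the 8 listed genes between 2976 and 3668 FPKM. That sum was between 2976 and 3093 FPKM in females and between 3120 and 3668 FPKM in males, without overlap. The Y-linked gene Ddx3y was at 0.02 to 0.16 FPKM in the libraries labelled female and at 5.62 to 9.84 FPKM in those labelled male. Xist, the RNA that coats the inactive X chromosome, was at 0.05 FPKM in the KO control library labelled female, as low as in the males, and reached 9.13 FPKM in the other females. The sex differences of the members are therefore given with and without that library. Transcripts of skeletal muscle, a tissue that lies beside the ganglion, varied widely, with a summed level of 8 markers between 3.16 and 553.9 FPKM over the libraries.

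The genes spanned a wide range of expression in the WT control ganglia. Meg3 was the highest at 68.0 ± 3.2 FPKM (SD, n = 3), above 98.0% of the 29220 genes detected in the table, and Ndn followed at 49.5 ± 7.4 FPKM (SD, n = 3). H19 stood at 21.4 ± 13.2 FPKM (SD, n = 3), a level above that of 92.4% of genes. Igf2, Mest and Peg3 came next at 14.7 ± 8.0, 14.2 ± 2.0 and 14.2 ± 1.7 FPKM (SD, n = 3 each). Neighbours in the order from H19 through Igf2 and Mest to Peg3 differed by less than their SDs, so that stretch of the order is not resolved. Plagl1 (6.54 ± 1.58 FPKM), Grb10 (4.36 ± 0.60 FPKM) and Cdkn1c (2.01 ± 0.82 FPKM) were lower (SD, n = 3 each). Dlk1 was close to silent at 0.16 ± 0.11 FPKM (SD, n = 3), and its 32 to 125 estimated counts per library put it under the minimum mean of 0.5 FPKM, so 9 of the 10 genes were tested.

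**Figure D1:**
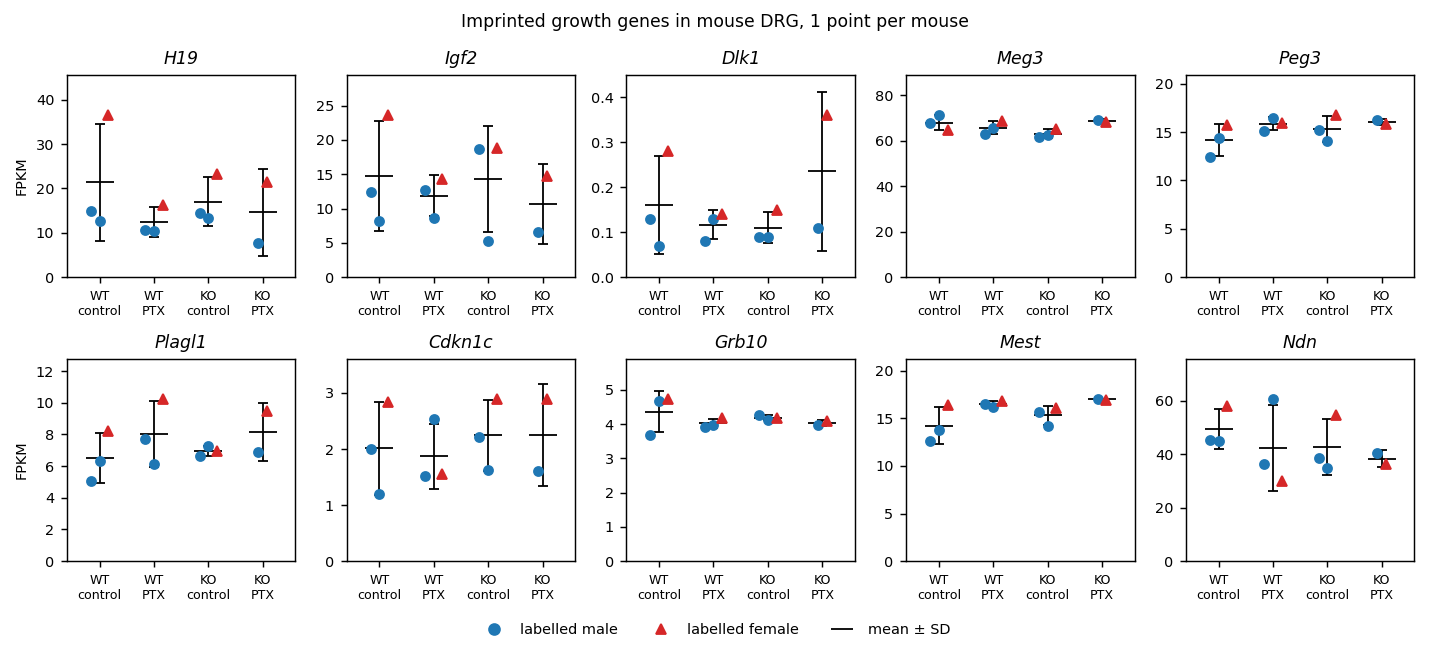
FPKM (y axis, from 0, a separate scale per gene) of the 10 imprinted growth genes in each of the 11 libraries, grouped on the x axis by genotype and treatment; circles are mice labelled male, triangles mice labelled female, and black bars the group mean ± SD. The female triangle is the highest point of its group in all 4 groups for H19, Igf2 and Dlk1, while the Meg3 points lie close together between 61.6 and 71.4 FPKM.

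The long noncoding RNA H19 carried the clearest pattern. In males it was at 14.8 and 12.7 FPKM in WT controls, 10.6 and 10.4 FPKM in WT PTX mice, 14.5 and 13.3 FPKM in KO controls and 7.65 FPKM in the KO PTX mouse. In females it was at 36.5 FPKM in the WT control, 16.2 FPKM in the WT PTX mouse, 23.3 FPKM in the KO control and 21.5 FPKM in the KO PTX mouse. All 4 females lay above all 7 males, which was so for 0.915% of the genes tested.

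In the fit across all genes, H19 was higher in females by 1.04 on the log2 scale (SE 0.13; edgeR quasi-likelihood test, adjusted p = 0.0304), and higher in the female of every group. Of the 15087 genes tested, 0.0398% were called between the sexes, namely H19 and 5 genes lower in females (the Y-linked Ddx3y, Uty, Kdm5d and Eif2s3y, and Gm29650). DESeq2 called H19 too (log2 difference 1.04, adjusted p = 7.717e-13), along with 0.815% of genes. An exact two-sided permutation test of the sex labels within groups gave a mean difference of 1.00 in log2(FPKM + 1) and p = 0.0185, the smallest value that its 54 arrangements allow. Without the KO control female that lacked Xist, the log2 difference was 1.16 (edgeR adjusted p = 0.0288), and the permutation test without the KO controls gave a mean difference of 1.1 and p = 0.0556, the smallest value of its 18 exact arrangements. Both permutation tests were added after seeing the data. With the female highest in every group, no other arrangement could give a larger positive difference, so neither is separate support. The call did not hold in 7 of the 11 fits that left out 1 library, with the highest adjusted p, 0.337, and the lowest log2 difference, 0.90, without the WT control female. It was also lost with limma on log2(FPKM + 1), where the difference was 0.98 (adjusted p = 0.0786).

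Igf2, the growth factor on the other side of the shared control region, followed the same order less tightly. It was at 12.4 and 8.14 FPKM in WT control males against 23.6 FPKM in the female, and at 12.7 and 8.55 FPKM in WT PTX males against 14.4 FPKM in the female. It was at 18.7 and 5.31 FPKM in KO control males against 18.8 FPKM in the female, and at 6.52 FPKM in the KO PTX male against 14.8 FPKM in the female. The female was the highest of each group, but the sexes overlapped because 1 KO control male reached the female level. The log2 difference between females and males was 0.84 (SE 0.29), which did not pass the correction (edgeR adjusted p = 0.524). Without the KO control female it was 0.92 (SE 0.36; edgeR adjusted p = 0.436).

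Dlk1, at the floor of detection, showed the same order. It was between 0.07 and 0.13 FPKM in the 7 males, with a median of 0.09 FPKM, and at 0.28, 0.14, 0.15 and 0.36 FPKM in the females of the WT control, WT PTX, KO control and KO PTX groups. The sexes did not overlap, although the nearest values differ by only 0.01 FPKM, the last digit given in the table. Among the tested genes 0.915% did not overlap in that direction, but Dlk1 was under the minimum for testing and is outside that share. With a filter on counts that let it be tested, its log2 difference was 1.01 (SE 0.30; edgeR adjusted p = 0.615), and 1.14 (SE 0.36; edgeR adjusted p = 0.484) without the KO control female.

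The pattern of the female being highest in all 4 groups was seen in H19, Igf2 and Dlk1. It held for 4.18% of the genes tested, which do not include Dlk1. Plagl1, a zinc finger transcription factor known to act on other imprinted genes, was higher in females by 0.38 on the log2 scale (SE 0.11; edgeR adjusted p = 0.448). Cdkn1c, an inhibitor of cyclin-dependent kinases, differed by 0.46 (SE 0.24; edgeR adjusted p = 0.643). The remaining members, Mest, Peg3, Grb10, Ndn and Meg3, differed by 0.11, 0.10, 0.07, 0.05 and 0.01 on the log2 scale, each with an edgeR adjusted p above the threshold. All 9 tested members had a positive difference, against 51.4% of all tested genes, and 3 of them, H19, Igf2 and Plagl1, were higher at an unadjusted edgeR p under 0.05, against 4.32% of all tested genes. Without the KO control female, 7 of the 9 had a positive difference, against 51.6% of the genes then tested. Ndn (-0.15) and Meg3 (-0.01) were then below 0, Plagl1 stood at 0.52 (SE 0.10; edgeR adjusted p = 0.239) and Cdkn1c at 0.42, Mest, Grb10 and Peg3 at 0.13, 0.11 and 0.08, and 3 members, H19, Igf2 and Plagl1, were higher at an unadjusted p under 0.05, against 5.07% of genes. These members share libraries and are not independent of each other.

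**Figure D2:**
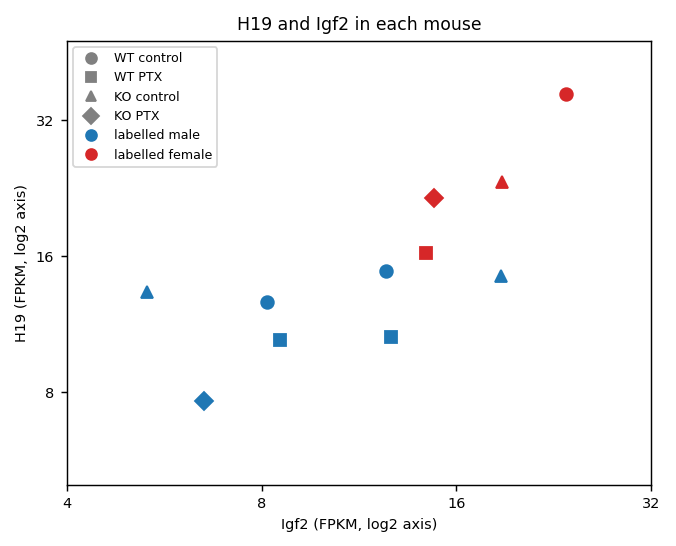
H19 (y axis) against Igf2 (x axis) in FPKM, both on log2 axes, with 1 point per mouse; shapes give the group and colours the labelled sex. The 4 females, at 16.2 to 36.5 FPKM of H19, lie above the 7 males, at 7.65 to 14.8 FPKM, and the males run from 5.31 to 18.7 FPKM of Igf2.

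Fibroblast transcripts moved with sex as well. All 7 listed fibroblast markers (Col1a1, Col1a2, Col3a1, Dcn, Lum, Pdgfra and Dpt) had a positive difference between females and males, with a median of 0.40 on the log2 scale and 0 called (edgeR adjusted p; unadjusted p under 0.05 for Dcn and Pdgfra). Their summed level was between 134.2 and 210.3 FPKM in females and between 97.6 and 190.7 FPKM in males. In the WT PTX group the female had the lowest fibroblast sum, 134.2 FPKM, and the highest H19, 16.2 FPKM. Over the 11 libraries, H19 and this sum correlated at r = 0.73 (Spearman rho 0.64), at r = 0.70 in the 7 males (rho 0.32), and at r = 0.45 without the KO PTX male and the WT control female, the libraries farthest from the median of H19. Igf2 and the sum correlated at r = 0.67 (rho 0.74). With the summed markers of meninges and of red cells, Igf2 correlated at r = 0.642 and r = 0.645, and H19 at r = 0.136 and r = 0.359. With those of mural cells of blood vessels and of cartilage and bone, H19 correlated at r = 0.516 and r = 0.235, and Igf2 at r = 0.217 and r = 0.573. Of the 5 mural markers, 2 were higher and 3 lower in females, and all 6 macrophage markers were lower (median -0.13 on the log2 scale). The meninges sum was highest in KO control 1, at 299.8 FPKM, and lowest in KO control 2, at 19.03 FPKM. These mice also had the highest and lowest Igf2 of the males, 18.72 and 5.31 FPKM. All 8 skeletal muscle markers were lower in females, with a median of -1.25 on the log2 scale and 0 called, and those of meninges had a median of 0.01. Without the KO control female, the medians were 0.39 with 7 of 7 above 0 for fibroblast and -0.77 with 8 of 8 below 0 for muscle. The sensory neuron sum was lower in every female than in every male, with 3 of its 8 markers above 0 and 5 below. It correlated with H19 at rho -0.64 (r = -0.31). The part of neuron, fibroblast, muscle, meninges, red cell, mural, macrophage or cartilage and bone content in the H19 and Igf2 results was not tested. In bulk tissue, fewer cells of a type and less RNA per cell cannot be told apart.

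The genes most like H19 across the 11 libraries, by Pearson's r of log2(FPKM + 1), were BC030343 (r = 0.94), Cpa3, a protease of mast cells (r = 0.93), the collagen gene Col6a2 (r = 0.93), Gas1, a membrane protein of the growth-arrest type (r = 0.91), and Prrx1, a homeobox gene of mesenchymal cells (r = 0.90). Cpa3 was between 0.48 and 1.16 FPKM in males and between 1.24 and 2.08 FPKM in females. Prrx1 did not overlap between the sexes either, while BC030343, Col6a2 and Gas1 did. Among all tested genes, 0.915% lay higher in females without overlap. These genes were picked for likeness to H19, which itself separated the sexes, so their separation is not separate support. Thbs1, a matrix glycoprotein, was most like Igf2 (r = 0.93), and Ltbp4, which binds latent TGF-beta in the matrix, was most like Cdkn1c (r = 0.95). Among the other members, the nearest genes were Rbbp5 for Peg3 (r = 0.96), Uvssa for Plagl1 (r = 0.95), Insig1 for Grb10 (r = 0.90), Thsd7b for Mest (r = 0.97) and Adcy6 for Ndn (r = 0.93). These are the highest of many correlations and share libraries and depth.

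In WT mice, 4 weeks after PTX, H19 was lower and Mest higher than in controls, without passing the correction over all genes. H19 averaged 21.4 ± 13.2 FPKM in WT controls and 12.4 ± 3.3 FPKM after PTX (SD, n = 3 each), and the log2 difference fitted with sex was -0.65 (SE 0.17; edgeR adjusted p = 0.238). The values overlapped, since the WT PTX female, at 16.2 FPKM, lay above both WT control males. The WT control female at 36.5 FPKM, above the other 10 libraries, widened the control SD. DESeq2 on the same counts gave -0.65 as well and called it (adjusted p = 0.0095), in a comparison where it called 2.05% of genes and edgeR called 0.00663%.

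Among males of both genotypes, H19 was between 7.65 and 10.6 FPKM in the 3 PTX mice and between 12.7 and 14.8 FPKM in the 4 controls, without overlap, which held in the lower direction for 2.86% of tested genes. Mest did not overlap between these males in the higher direction, as for 4.99% of genes. This split of the males was not among the planned comparisons. With the females included, H19 overlapped between PTX and control mice in both genotypes. The KO females were at 23.32 FPKM in the control and 21.54 FPKM after PTX. In KO mice the log2 difference of H19 after PTX was -0.53 (SE 0.20; edgeR adjusted p = 0.999), with 14.6 ± 9.8 FPKM in 2 PTX mice against 17.0 ± 5.5 FPKM in 3 controls (SD). It was -0.22 without KO PTX replicate 2, -0.81 without KO PTX replicate 3 and -0.22 without the sex term. The interaction of PTX and genotype was 0.13 for H19 (edgeR adjusted p between 0.724 and 0.978 for the 9 tested members). Both PTX comparisons were set against separate control mice.

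Mest, a paternally expressed gene of the hydrolase fold family, was at 12.6, 13.7 and 16.4 FPKM in WT controls and at 16.4, 16.2 and 16.8 FPKM after PTX. The WT control female reached the level of the PTX mice, and the control males did not. The log2 difference was 0.21 (SE 0.07; edgeR adjusted p = 0.311). In KO mice it was at 15.7, 14.1 and 16.1 FPKM in controls and at 17.0 and 16.9 FPKM after PTX. The KO groups did not overlap, as for 11.3% of tested genes in that direction, and the log2 difference was 0.13 (edgeR adjusted p = 0.999).

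Peg3, a paternally expressed zinc finger protein, moved in parallel with Mest. It was at 12.4, 14.4 and 15.8 FPKM in WT controls, at 15.2, 16.5 and 15.9 FPKM in WT PTX mice, at 15.2, 14.0 and 16.8 FPKM in KO controls and at 16.3 and 15.8 FPKM in KO PTX mice. The lowest library of both genes was WT control 1. Plagl1 was between 5.09 and 8.22 FPKM in WT controls and between 6.12 and 10.2 FPKM in WT PTX mice, with a log2 difference of 0.29 (SE 0.14).

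Cdkn1c, Grb10, Meg3 and Ndn gave no called difference. Cdkn1c was at 2.0, 1.19 and 2.84 FPKM in WT controls and at 1.52, 2.54 and 1.55 FPKM in WT PTX mice, with a log2 difference of -0.02. Grb10, an adaptor that dampens signalling of the insulin and IGF receptors, was between 3.67 and 4.73 FPKM in all 11 libraries. Its 2 KO PTX values, 3.97 and 4.10 FPKM, lay just under the KO control range that starts at 4.11 FPKM, as for 10.4% of tested genes in that direction. Meg3 was the steadiest of the set, at 67.7, 71.4 and 65.01 FPKM in WT controls and at 63.1, 65.5 and 69.0 FPKM in WT PTX mice. In KO mice it was at 61.6, 62.5 and 65.3 FPKM in controls and at 69.4 and 68.3 FPKM after PTX, groups that did not overlap, as for 11.3% of tested genes in that direction, with a log2 difference of 0.12. Ndn, a MAGE family protein of neurons that restrains cell cycling, was at 45.4, 44.98 and 58.0 FPKM in WT controls and at 36.6, 60.7 and 30.1 FPKM in WT PTX mice. Its log2 difference after PTX was -0.22 in WT and -0.16 in KO mice, with group ranges that overlapped, and the WT difference ran from -0.58 to 0.07 with 1 library left out.

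The genotypes gave no called member. Between KO and WT controls, the log2 differences of the 9 tested members ran from -0.21 to 0.18 with edgeR adjusted p from 0.686 to 0.987, and the group values overlapped for each of the 10 genes. Between KO and WT mice after PTX they ran from -0.40, for Igf2 (SE 0.43), to 0.11, and Mest was the 1 gene whose groups did not overlap, as for 10.7% of tested genes in that direction. With edgeR, 0 of the 9 members were called for PTX in WT, PTX in KO, KO against WT controls or the interaction, where 0.00663% of genes were called in each, or for KO against WT after PTX, where 0.0133% were called. At an unadjusted p under 0.05 there were 2 members for PTX in WT, H19 and Mest, where 13.5% of all genes passed, and 1 for PTX in KO, H19, where 4.32% passed. There were 0 in KO against WT controls (7.54% of all genes), KO against WT after PTX (3.55%) and the interaction (6.3%). DESeq2 called 0 members in KO against WT controls, PTX in KO, KO against WT after PTX and the interaction, where it called 0.278%, 0.192%, 0.0663% and 0.0795% of genes. Ranges of the muscle markers differed between these groups too, from 14.7 to 492.9 FPKM in WT controls and from 3.16 to 166.5 FPKM in WT PTX mice, with a median log2 difference of -2.73 over the 8 markers, and the 6 macrophage markers had a median of -0.54 in the same comparison. The 7 fibroblast markers had a median of 0.13 for PTX in WT and of -0.55 for PTX in KO, where Igf2 stood at -0.64 (SE 0.44) and H19 at -0.53. The Igf2 value was -0.07 without KO control replicate 1, -0.94 without KO control replicate 2 and -0.26 with the replicate number as a block. For PTX in KO, the 4 tested central glia markers had a median of 2.60, with 4 above 0. The 4 tested meninges markers had one of -0.66, with 4 below 0. The summed level of the 7 central glia markers was 9.74 to 21.21 FPKM in KO PTX mice and 2.75 to 4.33 FPKM in KO controls. The part of muscle, macrophage, fibroblast, central glia and meninges content in these values was not tested.

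**Figure D3:**
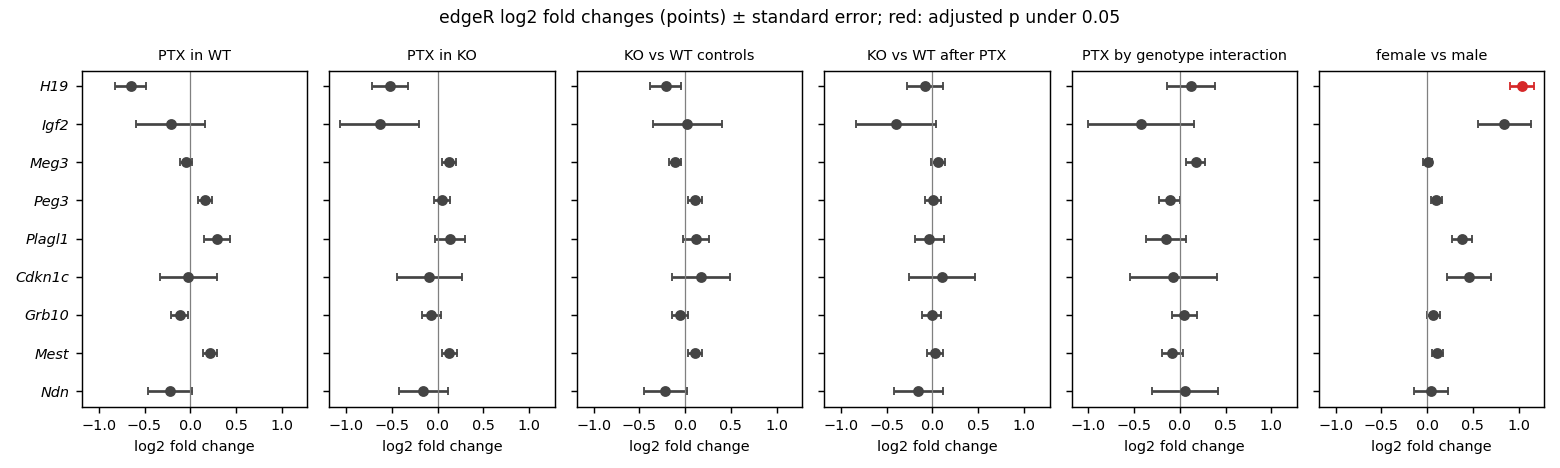
Log2 fold changes (x axis) of the 9 tested genes (y axis) from edgeR in 6 comparisons, with bars of 1 standard error; red marks an adjusted p under 0.05. H19 between females and males, at 1.04, is the 1 red point, and the bars of Igf2, Cdkn1c and Ndn are the widest.

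The genes differed in how far mice of a group lay apart. The SD within groups, of log2 CPM (counts scaled to library depth) and with sex left in, was 0.78 for Igf2 and 0.66 for H19, above 97.0% and 95.9% of tested genes. It was 0.50 for Cdkn1c, 0.34 for Ndn and 0.30 for Plagl1. Grb10, Peg3 and Mest, at 0.11, 0.10 and 0.10, and Meg3, at 0.06, lay below the median of all genes, 0.16. The highest library was 4.78 times the lowest for H19, 4.45 times for Igf2 and 1.16 times for Meg3, against a median of 1.48 times over the tested genes.

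**Figure D4:**
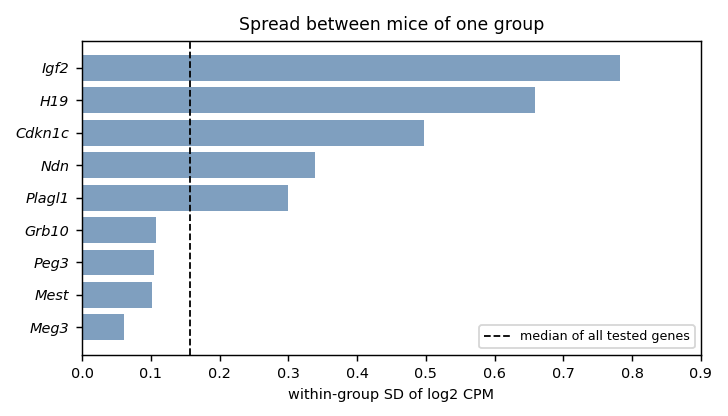
SD of log2 CPM between mice of the same group (x axis, from 0) for the 9 tested genes; the dashed line is the median of all tested genes, 0.16. Igf2, H19, Cdkn1c, Ndn and Plagl1 exceed it and Grb10, Peg3, Mest and Meg3 do not.

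H19 and Igf2, which share a locus, did not vary in a fixed ratio. The log2 ratio of H19 to Igf2, each as FPKM + 1, was 0.48 ± 0.21 in WT controls and 0.06 ± 0.26 in WT PTX mice (SD, n = 3 each). It was 0.38 ± 0.77 in KO controls (SD, n = 3) and 0.36 ± 0.22 in KO PTX mice (SD, n = 2), and ran from -0.35 to 1.18 over the libraries, both ends being KO control males. H19 and Igf2 correlated at r = 0.77 over 11 libraries (rho 0.79) and at r = 0.44 in the 7 males. Dlk1 and Meg3, the other pair, correlated at r = 0.16 (rho 0.10). With Dlk1 at 0.07 to 0.36 FPKM, near the floor, this value cannot show whether the pair varies together.

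Among the 45 pairs of the 10 genes the median r was 0.28, and 7 pairs had an r of at least 0.6. Peg3 and Mest had the highest (r = 0.90, rho 0.61), with r = 0.92 in males and r = 0.69 without WT control 1 and KO control 2, the libraries farthest from the median of Peg3. Dlk1 and Cdkn1c correlated at r = 0.72 and at r = 0.74 in males. Cdkn1c correlated with H19 at r = 0.65 and with Igf2 at r = 0.61, and in males at r = 0.14 and r = 0.38. H19 and Dlk1 correlated at r = 0.71, at r = -0.14 in males, where Dlk1 was at 0.07 to 0.13 FPKM, and at r = 0.66 without KO PTX replicate 2 and WT control replicate 3. Plagl1 correlated with Mest at r = 0.69 and with Ndn at r = -0.50, the lowest of the pairs. All of these points share libraries and depth.

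**Figure D5:**
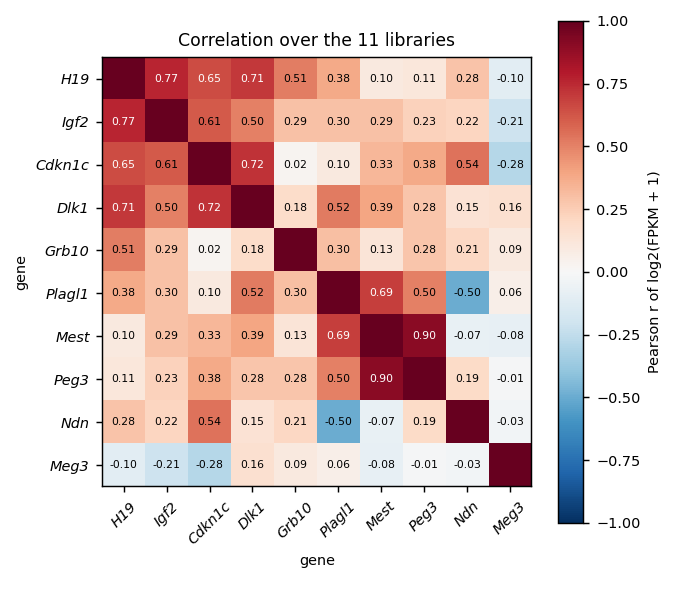
Pearson's r of log2(FPKM + 1) between each pair of the 10 genes over the 11 libraries, printed in each cell and coloured from blue (-1) to red (1). H19, Igf2, Cdkn1c and Dlk1 form a red corner over both sexes, Peg3 and Mest a separate red pair at 0.90, and Meg3 is near 0 with most genes. In the 7 males alone, not drawn, r was -0.14, 0.14 and 0.44 for H19 with Dlk1, Cdkn1c and Igf2. It was 0.38 for Igf2 with Cdkn1c and 0.74 for Dlk1 with Cdkn1c.

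Since Plagl1 binds a GC-rich box, the RefSeq promoters of the members (GRCm38.p6, from 250 bases before to 50 after each start) were searched on both strands for GGGGCCCC. H19 and Cdkn1c had no promoter entry and were not searched. The box was found in 1 of 15 promoters, from 8 members with entries, and in 1.08% of all 32851 promoters. That 1 belongs to Peg3, on the minus strand at chr7:6730602-6730631, with the box starting at position -201 from the start of the gene, and it is shown as the 1 match among the members; capitals mark the box. Peg3 and Plagl1 correlated at r = 0.50 (rho 0.21) over the 11 libraries.
Peg3: gactctgcttgGGGGCCCCtaacactgact

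A list of 39 other imprinted genes, all in the table, gave 24 genes that could be tested, and edgeR called 0 of them in any of the 6 comparisons. At an unadjusted p under 0.05 there were 3 for PTX in WT (13.5% of all genes), 2 for KO against WT controls (7.54%), 1 for PTX in KO (4.32%), 1 for KO against WT after PTX (3.55%), 2 for the interaction (6.3%) and 3 for sex (8.44%). The median log2 difference of the 24 was 0.02 for PTX in WT, with 12 above 0 and 12 below, and 0.01 for sex, against medians of -0.01 and 0.00 over all genes. The 9 tested members had medians of -0.05 and 0.11 in these comparisons. Nnat, a paternally expressed membrane proteolipid, went from 13.3 ± 2.0 FPKM in WT controls to 8.11 ± 0.73 FPKM after PTX (SD, n = 3 each; log2 difference -0.71, SE 0.22, edgeR adjusted p = 0.272). It was also lower in KO controls, at 8.14 ± 3.12 FPKM (SD, n = 3; log2 difference -0.72, edgeR adjusted p = 0.657). Both differences use the same WT control mice. DESeq2 called Nnat for PTX in WT (adjusted p = 0.0402). Ube3a, a ubiquitin ligase, was at 4.64 ± 1.49 FPKM in WT controls and 6.29 ± 0.27 FPKM after PTX (SD, n = 3 each; edgeR adjusted p = 0.422). The other genes with the largest differences in the list were Slc22a18 (-0.38) and Peg10 (0.26) for PTX in WT and Ppp1r9a (-0.49), Zim1 (0.22) and Ube3a (0.23) for KO against WT controls, on the log2 scale and with edgeR adjusted p of 0.441 or more.

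The IGF axis around Igf2 gave 13 tested genes of 16 listed, and edgeR called 0 in any comparison. At an unadjusted p under 0.05 there were 4 for PTX in WT (13.5% of all genes), 3 for KO against WT controls (7.54%), 2 for PTX in KO (4.32%), 0 for KO against WT after PTX (3.55%), 1 for the interaction (6.3%) and 3 for sex (8.44%). The median log2 difference was -0.23 for PTX in WT, with 11 of 13 below 0, where 7718 of all 15087 genes were below 0. It was -0.12 for KO against WT controls, with 10 of 13 below 0 (7425 of all genes), -0.28 for PTX in KO, with 9 of 13 below 0 (7954 of all genes), and 0.03 for sex. Igfbp3, which binds IGFs outside the cell, went from 9.58 ± 3.33 FPKM in WT controls to 5.72 ± 1.03 FPKM after PTX (SD, n = 3 each; log2 difference -0.72, SE 0.17, edgeR adjusted p = 0.216). Igf1r, the receptor through which IGFs signal, had a log2 difference of 0.30 in the same comparison (SE 0.08; edgeR adjusted p = 0.238). DESeq2 called both, with adjusted p of 0.0046 and 0.0484. Igfbp2, another binding protein, had a log2 difference of -0.61 (SE 0.27) and Insr, the insulin receptor, one of 0.20 (SE 0.12) for PTX in WT. Between KO and WT controls, Igfbp3, Igfbp2, Igfbp5 and Insr had log2 differences of -0.51, -0.35, 0.27 and 0.28, with edgeR adjusted p of 0.657 or more. Between females and males, Igf1 differed by 0.59 on the log2 scale (SE 0.14; edgeR adjusted p = 0.361) and Igfbp3 by -0.54 (SE 0.13; edgeR adjusted p = 0.431), and DESeq2 called both (adjusted p of 0.0104 and 0.0112). Without the KO control female they differed by 0.56 and -0.50 (edgeR adjusted p of 0.360 and 0.404). Igf1 reached 1.56 FPKM in the WT control female and 1.33 FPKM in the KO control female, against 0.50 to 0.93 FPKM in males, while the WT PTX and KO PTX females, at 0.83 and 0.89 FPKM, were within the male range.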

How the data were processed

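RNA was taken from DRGs of 11 mice and read as stranded poly(A) libraries. Per the labels, the authors used cutadapt, FastQC, HISAT2 and StringTie with mm10; versions are not given in the sources used here. The deposited FPKM values were scaled by the authors to transcript length and depth. The deposited counts were whole numbers of a size that StringTie estimates from coverage, and were treated as estimated counts. The members, lists and comparisons were chosen with earlier results of these data known.

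Counts were fitted with edgeR 4.0.16 (quasi-likelihood, TMM) in R 4.3.3 for all 11 libraries with group and labelled sex, over 15087 genes with a mean of at least 0.5 FPKM, and p-values were adjusted by Benjamini-Hochberg with a threshold of 0.05. Errors of log2 fold changes were derived from the F statistic. Alternatives were DESeq2 1.42.0, limma 3.58.1 on log2(FPKM + 1), DESeq2 size factors, other filters, no sex term, a replicate block and each library left out. Correlations used log2(FPKM + 1). The genes named outside the members were those with the largest fitted changes of each list in either direction, for PTX in WT and KO against WT controls, and, for likeness, those with the highest r, of which that of Meg3 is not reported here. Igf1 and Igfbp3 between the sexes, the Y-linked genes, Xist and Gm29650 were named after their values were seen. Nothing says whether libraries of a group came from separate cages or days. Depth was 52735648 to 80348732 counts per library, which limits Dlk1 most. Scripts were tested on simulated data.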

Additional observations from a re-analysis of the deposited data

Results flagged for a closer look

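Each gene was checked for a library far from the others among the 4 females and among the 7 males, 20 sets in all, and 3 stood apart by Dixon's criterion, where chance gives about 1 in 20. Cdkn1c had its lowest female value, 1.55 FPKM, in the WT PTX female. Grb10 had its highest female value, 4.73 FPKM, in the WT control female. Ndn had its highest male value, 60.69 FPKM, in WT PTX replicate 2.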

How the results depend on the processing

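Members called stayed at 0 under each alternative for KO against WT controls, PTX in KO, KO against WT after PTX and the interaction. For PTX in WT, DESeq2 called 1 member (H19), 1 other imprinted gene and 2 genes of the IGF axis; for sex it called 2 of the IGF axis. For sex, limma called 0 members, with H19 at 0.98, and leaving out 1 library gave 0 to 1 members, with H19 between 0.902 and 1.176. Without the WT control libraries 1, 2 and 3, WT PTX 2, KO control 2 and KO PTX 2 and 3 in turn, H19 had adjusted p of 0.121, 0.0627, 0.337, 0.0567, 0.0594, 0.105 and 0.0965; the cause was not tested. Meg3 between the sexes turned to -0.002 with filterByExpr and ran from -0.038 to 0.053 with 1 library left out, and Ndn from -0.146 to 0.274. All genes called ran from 0 to 309 for PTX in WT (309 with DESeq2, 0 with limma) and from 5 to 123 for sex.

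Deviations from the group means correlated at a mean r of 0.0797 between same-numbered mice, with 7 of 15 pairs over 0.1. Between mice of different numbers the mean r was -0.0397, with 4 of 30 pairs over 0.1. Among the mice of number 3, which are the females, it was 0.1477, with 4 of 6 pairs over 0.1. The numbers were not taken to pair the mice. With the replicate number as a block in place of sex, edgeR called 0 members in each comparison. It moved the Igf2 difference for PTX in KO from -0.635 to -0.26. The permutation tests of H19, the correlations within males or with libraries left out, and the lists and Dlk1 without the KO control female were added after seeing the data. Depth limits Dlk1, with 32 to 125 counts per library. With 2 KO PTX mice, comparisons that use them rest on few values.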
